A study of Homo sapiens with 6 samples.

Results

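The histone gene cluster of chromosome 6 was described in the compartment scores of parental and tamoxifen-resistant T47D cells. Its members were chosen by symbol and position, with no measured value: the protein-coding genes that start on chromosome 6 between 25.7 and 28.9 Mb of hg19 in the GENCODE annotation and whose symbols begin with H1-, H2AC, H2BC, H3C, H4C or HIST1. They numbered 52 of the 20098 protein-coding genes on the chromosomes of the files, and their starts fell in 7 of 30376 bins of 100 Kb.

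T47D is an established breast cancer cell line that expresses the estrogen receptor. Chromatin contacts were measured with TCC, a Hi-C method that ligates fragments tethered to a surface, and the authors deposited the first eigenvector of the corrected contacts, 1 value for every 100 Kb. Bins scored above 0 belong to compartment A (active) and bins scored below 0 to compartment B (inactive). Scores are scaled within a library, so levels are given as the percentile of a bin among all bins with a score in its library, where 100 is the highest score. Parental cells had been starved of hormone for 72 h. T0 is the parental library without estradiol (E2). T1, T4, T16 and T24 are parental libraries treated with 100 nM E2 for 1, 4, 16 and 24 h. TamR is the tamoxifen-resistant T47D line, labelled as untreated. The methods, however, describe its culture with 100 nM tamoxifen in charcoal-stripped serum, the kind of serum in which parental cells were starved. No separate starvation is given for TamR. TamR thus differs from T0 in line and in culture, which cannot be told apart.

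With 1 library for each of the 6 conditions, differences lack a replicate check and no test was made. Whether cultures were pooled in a library is not stated. The files hold no contact counts, which leaves the depth of the libraries unknown. Between 27954 and 27972 bins had a score in a library, and a bin listed at 0 was left out. The range of the 5 parental libraries serves below as the only yardstick of spread, and it contains any effect of E2. Across all bins the scores of TamR had a correlation of 0.894 to 0.901 with the parental libraries, which had 0.985 to 0.996 among themselves (Pearson's r over bins, which are not replicates). Of 9 luminal breast epithelial markers, which lie in 8 bins, 6 lay in A in all 6 libraries. Among all bins 38.2% did so, and among bins with at least 5 protein-coding gene starts 92.4%, so this count cannot identify the line. The estrogen receptor gene ESR1, GATA3 and the progesterone receptor gene PGR were read in the bins of their annotated starts. These bins lay in A in all 5 parental libraries and in B in TamR, with scores (x 1000) of -0.05, -0.79 and -6.92 there. Each of these genes reaches into further bins, which were not read. They were named because their sign differed between libraries, and of all bins in A in T0, 13.6% changed compartment in TamR.

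Histones are the proteins around which DNA is wound, and H2A, H2B, H3 and H4 form the core of the nucleosome while H1 binds the linker. Most genes of this cluster are replication-dependent: they are transcribed mainly in S phase, mostly lack introns, and give mRNAs that end in a conserved stem-loop instead of a poly(A) tail. Such clusters gather in the nucleus at the histone locus body, a structure organised by NPAT. These data show the compartment of the genes and not their transcription.

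The cluster held 6 H1, 12 H2A, 13 H2B, 10 H3 and 11 H4 genes, 24 on the plus and 28 on the minus strand. The median gene was 496 bases long and the median distance between neighbouring starts was 5.32 kb. With a new subcluster wherever neighbouring starts lay more than 500 kb apart, there were 3 subclusters. The first held 31 genes over 559 kb, from H2AC1 to H4C8, in 4 bins. The second held 5 genes over 14.3 kb, from H2BC11 to H2AC12, in 1 bin. The third held 16 genes over 85.5 kb, from H2BC13 to H2BC17, in 2 bins. Gaps of 815 and 661 kb separated them. H1 genes were present in the first subcluster, with 5, and the third, with 1, and H3 genes with 7 and 3. The second subcluster had neither.

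All 52 members carried the stem-loop motif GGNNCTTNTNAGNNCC in a GENCODE transcript, against 150 of 19834 protein-coding genes (0.756%). The motif was searched on the transcript strand in every protein-coding transcript. The 26 bases around it are shown for 5 members from the 3 subclusters, since this element is what sets the mRNAs of the family apart. Capitals mark the 16 bases of the motif, and each stretch ends 5 bases after it, at the end of the transcript.
H2BC1: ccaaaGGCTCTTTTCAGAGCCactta
H4C3: ccaaaGGCCCTTTTCAGGGCCgctca
H2BC11: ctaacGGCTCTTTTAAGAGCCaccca
H1-5: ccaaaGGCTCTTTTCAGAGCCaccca
H3C12: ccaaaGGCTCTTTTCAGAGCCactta
The core of H2BC1, H1-5 and H3C12 was the most common, in 30 members. The core of H4C3 occurred in 8 members and that of H2BC11 in 7.

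Of the 25 H2A and H2B genes, 16 formed 8 head-to-head pairs whose starts lay 170 to 251 bases apart. H2AC1 and H2BC1 made up 1 such pair, with 215 bases between their starts. Promoters of 51 members matched the RefSeq table of GRCh38.p14, which holds 250 bases before and 50 bases after each start. The octamer ATTTGCAT, searched on both strands, is a known binding sequence of the factor OCT1 and was present in 20 of 51 member promoters (39.2%), against 1.8% of 27305 promoters. It was present in 10 of 13 H2B and 9 of 11 H2A promoters, in 1 of 10 H3 promoters, and in 0 of 6 H1 and 0 of 11 H4 promoters. Among H2B promoters it was found in 6 of 7, 2 of 2 and 2 of 4 promoters of the first, the second and the third subcluster. The letters TATAAA, also searched on both strands, were in 34 of 51 member promoters (66.7%), against 12% of all. The letters CCAAT, on either strand, were in 42 of 51 (82.4%), against 35.7% of all, and H4 promoters made up the 9 without it. Windows of head-to-head neighbours overlap, so these matches are not independent, and a match is a description of letters and not a binding site. An H2B promoter of each subcluster is shown to let the family be compared across the region. Positions are on GRCh38.p14 and sequences on the strand of the gene, with the octamer in capitals.
H2BC1 promoter, subcluster 1, chr6:25726527-25726826, plus strand: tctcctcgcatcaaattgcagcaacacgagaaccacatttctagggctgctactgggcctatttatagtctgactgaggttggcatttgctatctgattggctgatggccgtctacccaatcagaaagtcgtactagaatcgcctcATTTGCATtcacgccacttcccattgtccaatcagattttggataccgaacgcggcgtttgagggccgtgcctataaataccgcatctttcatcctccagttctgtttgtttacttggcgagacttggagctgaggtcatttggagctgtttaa
H2BC11 promoter, subcluster 2, chr6:27132746-27133045, minus strand: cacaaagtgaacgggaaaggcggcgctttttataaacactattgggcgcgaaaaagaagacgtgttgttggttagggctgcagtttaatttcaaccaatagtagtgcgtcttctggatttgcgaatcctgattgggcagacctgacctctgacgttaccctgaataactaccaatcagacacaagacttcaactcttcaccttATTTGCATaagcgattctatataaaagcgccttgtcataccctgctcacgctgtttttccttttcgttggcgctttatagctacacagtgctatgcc
H2BC14 promoter, subcluster 3, chr6:27814772-27815071, plus strand: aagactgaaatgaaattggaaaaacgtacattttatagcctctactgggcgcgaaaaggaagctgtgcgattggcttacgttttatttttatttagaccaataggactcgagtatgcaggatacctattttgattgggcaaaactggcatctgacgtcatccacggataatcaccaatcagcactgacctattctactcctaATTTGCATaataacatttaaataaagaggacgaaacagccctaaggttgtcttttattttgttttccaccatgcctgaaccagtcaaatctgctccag
The octamer began 104 bases before the annotated start of H2BC1, 47 before that of H2BC11 and 48 before that of H2BC14.

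All 7 histone gene bins lay in compartment A in all 6 libraries (95% Wilson interval of the share 64.6 to 100%, counting bins only, and too narrow for neighbouring bins). Among all bins with a score in every library, 38.2% did so, and on chromosome 6 35.8%. Of the 578 bins with at least 5 protein-coding gene starts, a background added after the values were seen, 92.4% did so. The histone gene bins held 3 to 11 protein-coding gene starts with a median of 10, and the median over all bins was 0. Beside other gene-dense bins, a place in A was thus the usual case.

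The highest member bin in each of the 6 libraries was the one from H4C5, a gene of core histone H4, to H4C8. Its percentile was 91.7 in T0, 89.3 in T1, 88.7 in T4, 87.7 in T16, 90.5 in T24 and 89.1 in TamR. The bin, from 26200001 to 26300000, holds 10 members that cover all 5 histone classes and no other protein-coding gene start. T0 was the highest library and T16 the lowest, with TamR inside the parental range. The score itself (x 1000) was 9.37, 8.38, 8.06, 7.71, 9.12 and 8.21 in the same order.

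The neighbouring bin from H4C3 to H2AC7, from 26100001 to 26200000, also has 10 members. It stood at 90.1 in T0, 89.3 in T1, 87.1 in T4, 87.0 in T16, 89.3 in T24 and 88.4 in TamR. T0 was again the highest library, and TamR lay inside the parental range. The bin from H1-1, a linker histone gene, to H1-2, from 26000001 to 26100000, has 9 members and the iron regulator HFE. Its percentile was 88.0 in T0, 86.6 in T1, 87.5 in T4, 86.1 in T16, 87.8 in T24 and 88.0 in TamR. This bin had the narrowest parental range of the 7, at 1.96 points.

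The lowest member bin in each library was that of H2AC1 and H2BC1, from 25700001 to 25800000, an H2A and an H2B gene known for their expression in testis. It stood at 73.8 in T0, 72.7 in T1, 73.3 in T4, 72.7 in T16, 75.9 in T24 and 74.8 in TamR. A pair of bins separates it from the other members of its subcluster, and it also holds SLC17A4, a gene of the anion transporter family. Its parental range was 3.18 points, and TamR lay inside it.

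In the second subcluster, the bin from H2BC11 to H2AC12, from 27100001 to 27200000, stood at 84.1 in T0, 84.6 in T1, 83.4 in T4, 84.0 in T16, 85.8 in T24 and 78.2 in TamR. TamR lay below all 5 parental libraries. In the third subcluster, the bin from H2BC13 to H4C12, from 27700001 to 27800000, stood at 85.2 in T0, 84.6 in T1, 85.5 in T4, 86.9 in T16, 86.3 in T24 and 78.7 in TamR. There too TamR lay apart from the parental libraries, on the low side. The last bin, from H2AC15 to H2BC17 and from 27800001 to 27900000, stood at 81.5 in T0, 84.4 in T1, 82.7 in T4, 82.4 in T16, 85.8 in T24 and 81.8 in TamR. In it T0 was the lowest library, and TamR lay inside the parental range.

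**Figure D1:**
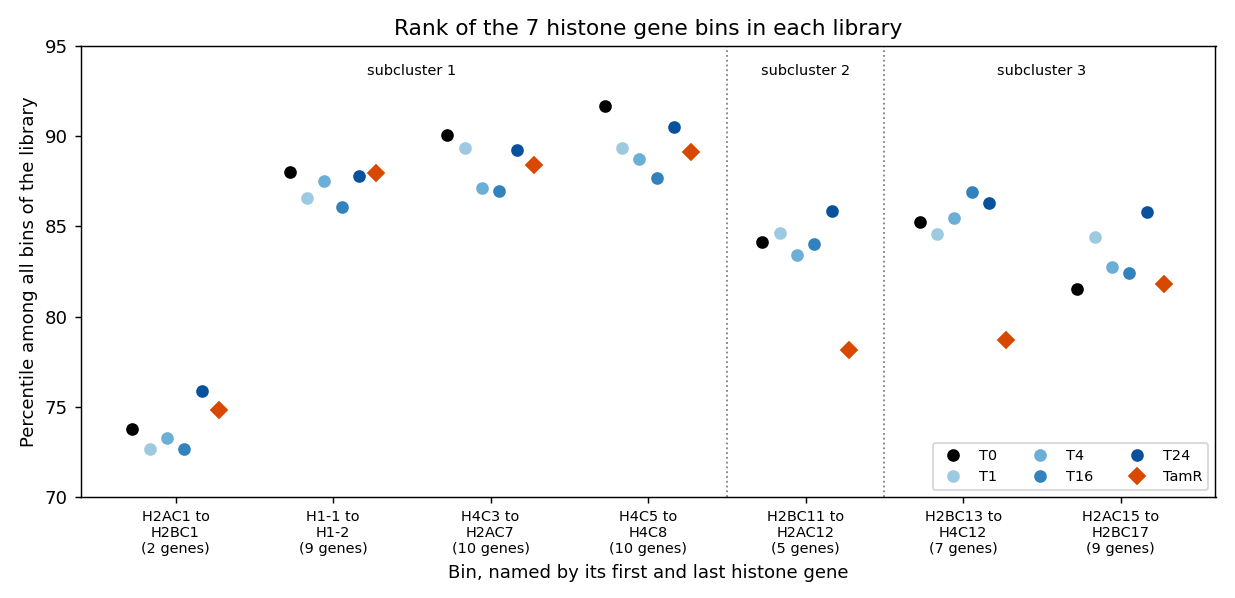
Percentile of each of the 7 histone gene bins among all bins of its library (vertical axis, from 70 to 95) for the 6 libraries, with 1 point per library and the bins in genome order. TamR (diamonds) lies below the 5 parental points in the bins of H2BC11 to H2AC12 (78.2) and H2BC13 to H4C12 (78.7) and among them in the other 5.

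Within T0, T1, T4, T24 and TamR, each of the 3 bins from H1-1 to H4C8 ranked above each of the 3 bins of the later subclusters. This order leaves out the bin of H2AC1 and H2BC1, a choice that was not planned. That bin also belongs to the first subcluster and ranked below all the others in every library, so the order does not hold for the whole subcluster. The lowest of the first 3 stood at 88.0 in T0 and the highest of the later 3 at 85.2. In T16 they overlapped, with 86.1 for H1-1 to H1-2 and 86.9 for H2BC13 to H4C12. In TamR the first 3 stood between 88.0 and 89.1 and the later 3 between 78.2 and 81.8. Over the 5 parental libraries together the values ran from 86.1 to 91.7 and from 81.5 to 86.9. The median of the first subcluster, with all its 4 bins, minus that of the later ones was 4.92 percentile points in T0 and 9.48 in TamR. With both touching bins counted as members the T0 difference was -2.13, so its sign depends on how a subcluster is bounded. The 52 genes share 7 bins, so histone classes could not be separated, and the median T0 percentile by class ranged from 84.7 for H2A to 89.1 for H1.

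No member bin changed compartment between T0 and any E2 time point. Among all bins, the share that changed was 3.17% with T1, 3.05% with T4, 3.8% with T16 and 5.17% with T24. With 7 bins, all far from the border, a count of 0 is not set apart from these shares. The median percentile of the members was 85.2 in T0, 84.6 in T1, 85.5 in T4, 86.1 in T16 and 86.3 in T24, a course without one direction. The 3 bins from H1-1 to H4C8 stood below T0 at all 4 E2 time points, as did 28.7% of all bins. The bin from H2AC15 to H2BC17 stood above T0 at all 4, as did 23.9% of all bins. The count of 3 of 7 was thus above the first share and that of 1 of 7 below the second, with 7 bins that are partly neighbours. Within single bins the 5 parental libraries spanned 1.96 to 4.30 points, with a median of 3.10, against 4.94 over all bins. The median was 3.39 over bins at T0 percentiles from 70 to 92 and 2.92 over the 15 bins that lie between the member bins. The members' span was thus close to that of bins of similar rank.

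No member bin changed compartment from T0 to TamR, against 13.9% of all bins and 13.6% of the bins in A in T0. These shares include bins near the border, whereas the lowest member bin stood at 73.8 in T0. With 7 bins, a count of 0 is not set apart from these shares. The median TamR minus T0 difference of the 7 bins was -1.68 percentile points, with 5 of 7 lower in TamR. Over all bins the median was -0.72, with quartiles of -7.79 and 6.45, and 53.9% were lower. Over the bins at T0 percentiles from 70 to 92, a span added after the values were seen because it holds every member bin, the median was -2.29 and 63% were lower. With T4 or T16 in place of T0 as the reference the members' median was 0.36 or 1.42, so its sign was not stable against the choice of parental library. TamR stood below all 5 parental libraries in 2 of 7 member bins and above them in 0, and among all bins 43% stood below and 36.3% above. Of the 6142 bins at T0 percentiles from 70 to 92, 51.8% stood below the parental range and 27.8% above. The members' count below is thus not larger than the background. Ranked among the bins of chromosome 6 alone, 4 of 7 stood below the parental range, the added ones being those from H4C3 to H2AC7 and from H2AC15 to H2BC17.

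The differences of the single bins ran from -6.52 points for H2BC13 to H4C12 and -5.97 for H2BC11 to H2AC12 to 1.05 for H2AC1 and H2BC1. The parental ranges of the first 2 were 2.30 and 2.42 points. In score (x 1000), H2BC11 to H2AC12 went from 6.56 in T0 to 5.10 in TamR, and H2BC13 to H4C12 from 6.88 to 5.24. Both differences lay inside the quartiles of all bins.

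**Figure D2:**
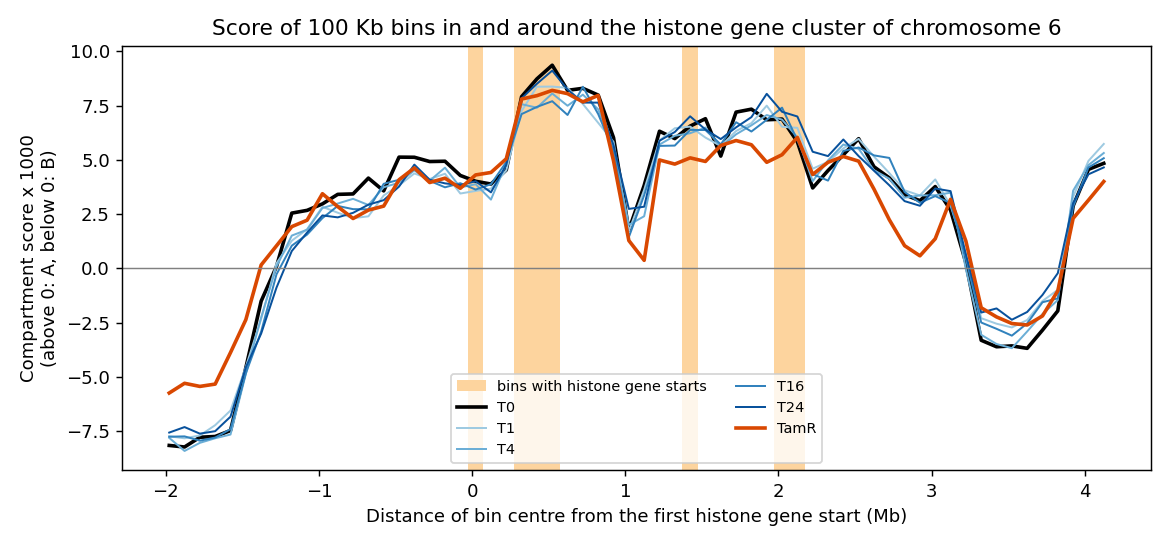
Compartment score x 1000 (vertical axis, 0 is the border between A and B) of the 100 Kb bins along the cluster and 2 Mb on each side, by distance of the bin centre from the first histone gene start in Mb, with 1 line per library and shading on the 7 histone gene bins. All lines stay above 0 across the cluster, peak over the bins from H1-1 to H4C8 and the butyrophilin genes beside them, and dip between the first and second subcluster, where TamR falls to 0.37.

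Between the first and the last member bin lay 15 bins without a histone gene start, all in A in all 6 libraries. From the first bin they hold the transporter genes SLC17A1, SLC17A3 and SLC17A2 and TRIM38. Then follow the butyrophilin genes, which encode immune surface proteins, among them BTN3A2 and BTN2A2. Next come HMGN4, ABT1 and the zinc finger gene ZNF322, then a stretch of 4 bins without a protein-coding gene start. After it follow the second subcluster, PRSS16, POM121L2 and the zinc finger genes ZNF391 and ZNF184. The 3 bins of the 6 butyrophilin genes stood at 88.2 to 89.0 in T0 and 87.6 to 88.7 in TamR, beside 88.0 to 91.7 and 88.0 to 89.1 in the 3 histone gene bins next to them.

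The median percentile of the 15 bins was 83.3 in T0, 82.9 in T1, 83.0 in T4, 81.7 in T16, 83.8 in T24 and 77.7 in TamR. Member bins exceeded these medians by 1.92, 1.71, 2.45, 4.37, 2.48 and 4.11 points. With ranges of 73.8 to 91.7 in the member bins and 62.8 to 89.0 in the bins between in T0, both sets overlapped over most of their length. The TamR difference was -2.38 with touching bins counted as members. A higher rank of the histone gene bins than of the bins among them was therefore not separated from the spread between bins.

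The 40 bins of the 2 Mb on each side ranked lower, with a median of 69.4 in T0 and 64.7 in TamR. The members exceeded it by 15.9 points in T0, 16.0 in T1, 16.1 in T4, 17.6 in T16, 16.4 in T24 and 17.1 in TamR. With flanks of 1 Mb and the other settings on the percentile scale this difference stayed between 10.1 and 23.2 points over the 6 libraries. Both sides differed further out. The 20 bins that a flank of 4 Mb adds before the cluster stood at 1.31 to 55.6 in T0, all below the median of the 2 Mb flanks. The 20 bins it adds after the cluster, toward the major histocompatibility complex, stood at 81.2 to 99.7 with a median of 98.0, above that of the histone gene bins. The median over both sides was therefore the same at 4 Mb, and the lead of the members over their surroundings holds for the 2 Mb next to them and not for the bins after it. In T0, 13 of 20 bins before the cluster and 14 of 20 after it lay in A. In every library the members lay in 1 unbroken run of A bins, from 24.4 to 29.0 Mb in T0 (46 bins) and from 24.3 to 29.0 Mb in TamR (47 bins). The run was 45 or 46 bins long in the E2 libraries, and the median run of A bins held 5 to 7.

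**Figure D3:**
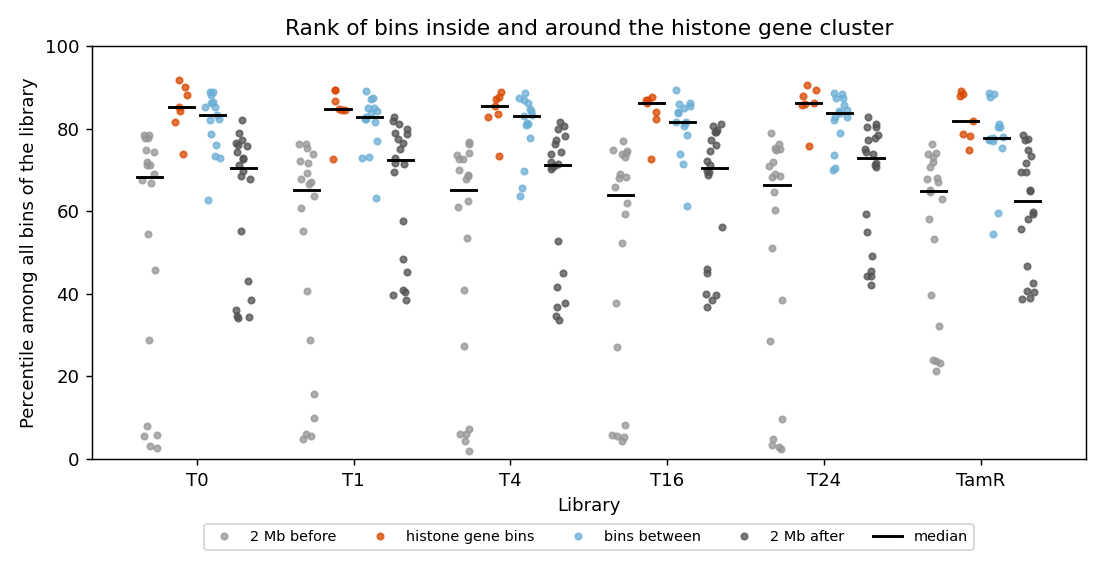
Percentile among all bins of the library (vertical axis, 0 to 100) for each bin of 4 zones in the 6 libraries: the 2 Mb before the cluster, the 7 histone gene bins, the 15 bins between and the 2 Mb after. Points are bins with horizontal jitter and lines are medians, and in T0 the medians of the histone gene bins (85.2) and the bins between (83.3) lie close together above the 69.4 of the flanks.

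A dip separated the first subcluster from the second. The lowest bin inside the cluster was the one from 26.7 Mb in all 5 parental libraries, at 62.8 in T0, and the one from 26.8 Mb in TamR. Neither holds a protein-coding gene start. The bin from 26.8 Mb stood at 72.9 in T0, 72.9 in T1, 65.7 in T4, 71.5 in T16, 70.5 in T24 and 54.4 in TamR. Its difference of -18.6 points was the lowest inside the cluster, and 7.66% of all bins had a difference as low or lower.

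The bins with TamR below the parental range lay next to each other. Of the 12 bins from 26.6 to 27.8 Mb, which include the second subcluster and the first bin of the third, 11 stood below all 5 parental libraries, against 43% of all bins and 51.8% of those at T0 percentiles from 70 to 92. The exception was the bin of ZNF391, and the median TamR minus T0 difference of the 12 was -5.80. Of the 6 bins from 26.0 to 26.6 Mb, which include 29 of the 31 genes of the first subcluster, 0 stood below it, and their median difference was -0.71. Outside the cluster, the 7 bins from 28.1 to 28.8 Mb stood below it as well, with a median difference of -9.62 and a lowest of -14.1, so such a stretch was not limited to the cluster. These borders were set after the values were seen, and neighbouring bins are not independent.

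**Figure D4:**
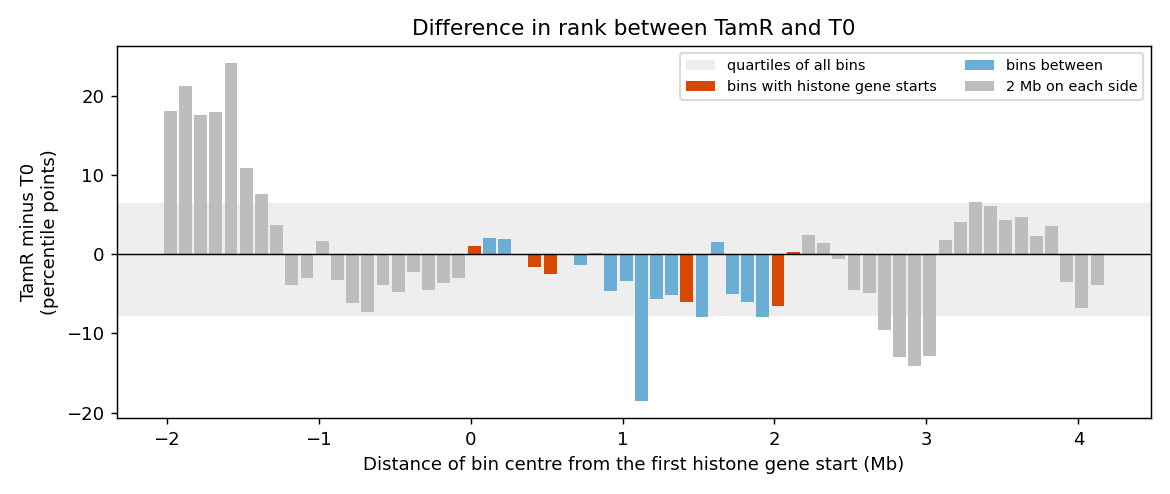
TamR minus T0 in percentile points (vertical axis) for each 100 Kb bin along the cluster and 2 Mb on each side, by distance of the bin centre from the first histone gene start in Mb, with histone gene bins and bins between in separate colours and the quartiles of all bins (-7.79 and 6.45) as a band. Bars are near 0 over the first subcluster and mostly negative from the dip (-18.6) to the first bin of the third subcluster (-6.52).

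Base composition was set beside the scores because both vary together along the genome. Across 27898 bins the correlation of score and GC content was 0.713 in T0 and 0.720 in TamR (Pearson's r, over bins that share a library). The member bins had a median GC content of 41.8% (39.2 to 43.4%), the bins between 40.9%, the flanks 40.3% and all bins 39.8%. In T0 the score percentile exceeded the GC percentile in 7 of 7 member bins, by a median of 22.7 points, against 50.8% of all bins. It did so in 15 of 15 bins between, by a median of 20.1 points. Of the 8119 bins within the GC range of the members, 44.1% lay in A in all 6 libraries. These last backgrounds were added after the values were seen. The part of base composition and gene density in the level of the cluster was not tested.

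**Figure D5:**
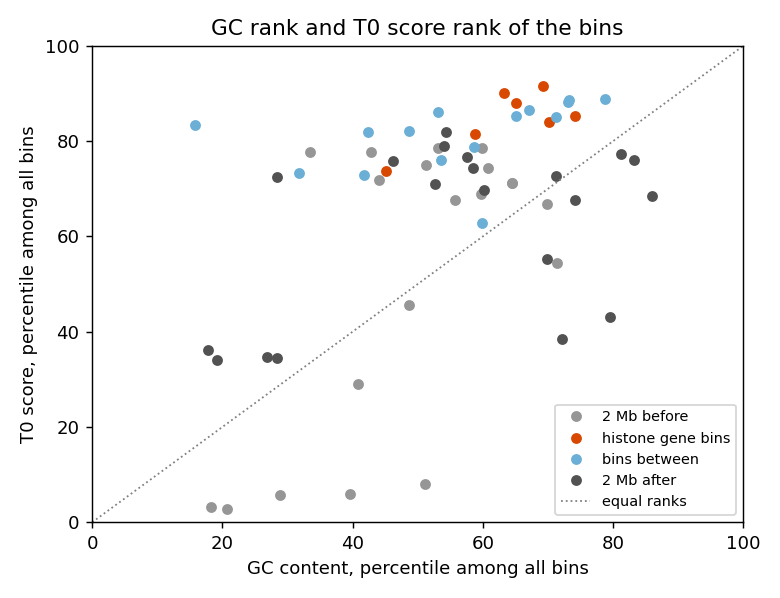
Percentile of the T0 score (vertical axis) against percentile of the GC content (horizontal axis), both among all bins, with 1 point per bin of the cluster and its flanks and a dotted line of equal ranks. All 7 histone gene bins lie above the line, with a median distance of 22.7 percentile points.

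The other replication-dependent histone genes were in A as well. Of 15 listed, 13 were found in the annotation, in 4 bins, and all 13 lay in A in all 6 libraries, as did 38.2% of all bins and 92.4% of bins with at least 5 gene starts. TamR stood below the parental range in 2 of these 4 bins and above it in 1. Among all bins 43% stood below and 36.3% above, and counts over 4 bins are not set apart from these shares. The bin of H2BC18, an H2B gene of the smaller cluster on chromosome 1, stood at 88.9 in T0 and 86.5 in TamR, inside its parental range. The next bin of that cluster, which begins with H4C14 and holds 9 of the 13 genes, stood at 96.6 and 94.2, below its parental range in TamR. That of H3-4 on chromosome 1 stood at 96.5 and 95.5, also below its parental range. The single H4 gene H4C16 on chromosome 12 stood lower, at 59.1 in T0 and 69.2 in TamR, above its parental range of 59.1 to 61.2. The 12 replication-independent histone genes, which supply histones outside S phase, were all in A in all 6 libraries as well, in bins at 59.1 to 99.8 in T0. Their TamR minus T0 differences ran from -13.7 to 10.1 points with a median of -0.28. H2AJ of this list shares the bin of H4C16, and that bin gives both the 59.1 and the 10.1.

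Of 17 genes of the histone locus body, histone transcription and histone mRNA processing, 15 lay in A in all 6 libraries, read against 38.2% of all bins and 92.4% of gene-dense bins. NPAT, which activates the histone genes under cyclin E-CDK2, stood at 67.1 in T0 and lay below its parental range in TamR, at 55.9. CASP8AP2, a scaffold of the same body, stood at 58.4 in T0 and above its parental range in TamR, at 70.2. HINFP, a factor of H4 promoters, stood at 96.4 and 94.9. SLBP, which binds the stem-loop, stood at 98.0 and 97.8. LSM10 and ZNF473, which belong to or act with the U7 particle that processes histone pre-mRNA, stood at 93.8 and 98.1 in T0 and at 93.3 and 99.1 in TamR. LSM11, the partner of LSM10 in that particle, lay in A in T0 alone, with a score (x 1000) of 0.16 in T0 and -0.99 in TamR. POU2F1, which encodes OCT1 and is named because it was the only listed gene in B in all 6 libraries, stood at 42.3 in T0. Over the 17 bins the median difference was -0.92, beside -0.72 over all bins. TamR stood below the parental range in 8 of the 17, HINFP, LSM11 and POU2F1 included, and above it in 4, ZNF473 included. Among all bins 43% stood below and 36.3% above.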

How the data were processed

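TCC had been done on 6 T47D libraries, 1 per condition, grouped by the sample titles. The authors aligned reads to hg19 with bowtie2, filtered and iteratively corrected the matrix with HiCLib, and deposited the first eigenvector of interchromosomal contacts as a score for each 100 Kb bin. Bin positions match GRCh37 chromosome lengths. The sum of squared scores was 0.998 to 0.999 in each library. The sign was used as deposited, and percentiles were computed among bins with a score other than 0. Gene starts were taken from GENCODE 44 mapped to GRCh37, GC content from the GRCh37 sequence, promoters from a RefSeq table of GRCh38.p14, and stem-loops from GENCODE transcripts.

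The members and lists were chosen with earlier results of these data known. Named were the first and last member of each bin, up to 5 genes in genome order for each run of bins between, 1 gene for each other histone locus, 7 genes of the histone locus body, and other listed genes whose sign differed between libraries. SLC17A4, HFE, HMGN4, ABT1, ZNF322, POU2F1, H4C14, H2AJ, and the genes and bins of the closing section were named after their values were seen. Sequences were picked as examples from each subcluster. With 1 library per condition, no test was made. Alternatives covered the border between A and B, ranks within chromosome 6, scaled scores, weighting by gene, bins joined in pairs, touching bins, subclusters left out, flanks, the gap and the reference library. Counting was tested on simulated scores. Scripts ran under Python 3.11.15 with scipy 1.17.1, pandas 2.3.3, numpy 2.4.6 and matplotlib 3.10.9.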

Additional observations from a re-analysis of the deposited data

How the results depend on the processing

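Of 253 recomputed values, 240 kept their direction and, where the scale allowed it, stayed within an order-statistic interval of the original median that treats bins as independent, or within 1.5 times the original count. For 7 bins that interval is their whole range, such as 73.8 to 91.7 in T0. Some values could not change, since no member bin scored 0 and scaling a library keeps the direction of differences within it. The 240 are thus no measure of robustness. The counts of member bins in A (7 of 7) and changed (0 of 7) held under every border tried. The border tried besides 0, the median score, lies below 0 in every library and could not move a bin out of A. Among the bins of chromosome 6 the members' median percentile was 91.1 in T1, 91.5 in T4, 92.6 in T16 and 92.5 in T24, since fewer bins of that chromosome ranked high. The count of member bins with TamR below the parental range was 4 of 7 with chromosome 6 ranks and 6 of 15 with touching bins. It was 2 of 3 without subcluster 1, 1 of 6 without subcluster 2 and 1 of 5 without subcluster 3. Of the 2 bins counted in the main setting, 1 lies in subcluster 2, 1 in subcluster 3 and 0 in subcluster 1. With touching bins the TamR difference of members and bins between was -2.38 and the T0 difference of the first and later subclusters -2.13. The members' median TamR difference was 0.36 against T4 and 1.42 against T16. The cause of these reversals was not tested. No paired analysis was possible because no condition has more than 1 library. Depth is unknown, and 7 members start within 5 kb of a bin edge, so a 100 Kb score cannot separate neighbouring genes.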

Other observations

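Past the end of the run of A bins that holds the histone genes lie olfactory receptor genes, which encode odorant sensors. The 6 bins from 29.0 to 29.6 Mb, which hold most of the 18 olfactory receptor genes of the region, lay in B in all 6 libraries. The first of them stood at 36.1 in T0 and 42.7 in TamR. The bins of HLA-F and HLA-G, class I genes of the major histocompatibility complex, followed in A in all 6 libraries, at 68.6 and 76.1 in T0 and 65.1 and 69.4 in TamR.

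On the other side, the bin of NRSN1, a neuronal vesicle membrane gene, from 24.1 Mb, lay in B in all 6 libraries at 8.02 in T0 and 32.2 in TamR. Its difference of 24.1 points was the highest within 2 Mb of the cluster, and 93.9% of all bins had an equal or lower difference. The bin of DCDC2 from 24.3 Mb changed from B in all 5 parental libraries to A in TamR, with a score (x 1000) of -1.51 in T0 and 0.16 in TamR. All these bins were chosen after their values were seen.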
